A study of Mus musculus with 11 samples.

Results

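The glycolytic enzyme isoforms examined here are 10 genes, Hk1, Hk2, Pfkl, Aldoa, Aldoc, Pgk1, Eno1, Eno2, Ldha and Ldhb, and they were measured in basal progenitors sorted from the cortex of mouse embryos. Members were found by matching the gene symbols of the array platform to these names. Of the 10 genes, 8 had a probe, 13 probes of 45281 in all, and 11 of these 13 were detected on at least 5 arrays. No probe carried the symbol Hk2 or Eno1, so these genes were not analysed here and the pairs Hk1 with Hk2 and Eno1 with Eno2 could not be formed. All 8 genes with a probe entered the test, among 10568 genes tested.

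Messenger RNA was measured at embryonic day 13 (E13, 6 arrays) and embryonic day 16 (E16, 5 arrays), each array a separate embryo, with the embryos of each stage from 3 litters. Every column label ends in WT, read here as wild type, and no treatment, strain or sex is given. The sources used here do not give the sort marker or which embryo came from which litter, so the tests treat the embryos as independent. The groups answer how this population differs between an early and a late stage of cortical neurogenesis.

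Glycolysis splits glucose into pyruvate in the cytosol, and lactate dehydrogenase then interconverts pyruvate and lactate. Several steps are run by enzymes from more than 1 gene. Hexokinase 1 and hexokinase 2 trap glucose as glucose 6-phosphate, aldolase A and aldolase C cleave fructose 1,6-bisphosphate, enolase 1 is widespread while enolase 2 is typical of neurons, and the LDHA subunit is usual in strongly glycolytic cells while LDHB is usual in oxidative ones. Proliferating cells commonly run glycolysis at a high rate, and neurons depend more on oxidative phosphorylation.

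Each array detected between 19731 and 20604 probes, and the arrays of a stage resembled each other (Pearson correlation over genes 0.982 to 0.994 for E13, 0.979 to 0.991 for E16) more than arrays of different stages did (0.955 to 0.975). Of the 13 basal progenitor markers 11 were tested, 10 lower and 1 higher at E16. Over all genes, 13% were higher and 14.1% lower in the same test, and the marker counts below stand beside these shares. Eomes, among the 10, was detected on all 11 arrays and fell by 0.75 in log2 intensity (SE 0.150, limma adjusted p = 0.00176). The mean log2 intensity of the tested markers lay between 10.4 and 10.8 on the E13 arrays and between 9.70 and 9.98 on the E16 arrays. Btg2 was the marker detected on no array. Here and below, such a result does not show that an mRNA was absent, because probes bind unequally. Of 16 neuron markers 14 were tested, 1 higher and 6 lower, with array means from 11.1 to 11.4 at E13 and from 10.8 to 11.1 at E16, and Nefl and Snap25 were detected on no array. All 6 tested of 9 Cajal-Retzius cell markers were lower at E16 (means 10.3 to 11.1 at E13, 7.66 to 8.72 at E16), and Nhlh2 was detected on no array. The red cell marker Hba-a1, the 1 of 12 that was tested, rose by 2.48 in log2 intensity (SE 0.603, limma adjusted p = 0.00643). Its values varied by array, from 5.08 to 9.55 at E13 and from 9.22 to 10.97 at E16, and the stages overlapped. Hba-x, Hbb-bh1 and Epor were detected on no array. Of 14 tested radial glia markers 5 rose and 3 fell, and of 4 tested astrocyte markers 2 rose and 2 fell. Of 6 tested interneuron markers 1 rose and 2 fell. Of 3 tested oligodendrocyte lineage markers 1 rose, and of 3 tested choroid plexus and hem markers 2 fell. The tested markers of endothelium (1 of 9), mural and meningeal cells (2 of 10) and microglia (2 of 10) did not pass. In bulk samples such as these, fewer cells of a type and less RNA per cell cannot be told apart.

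Of the 8 members measured, Eno2 and Ldhb were higher at E16, Pgk1 was lower, and the other 5 did not pass (limma, adjusted p under 0.05). In the same test 27.1% of all genes were called, 13% higher and 14.1% lower, so 3 of 8 is near the share of the whole table. The median difference of the 8 members, E16 minus E13 on the log2 scale, was -0.12, and that of all genes tested was -0.01. E13 and E16 values were fully separated for the same 3 members, which holds for 17% of all genes. The array-to-array SD of the members was between 0.105 and 0.288 at E13 and between 0.111 and 0.310 at E16, in log2 units. The plot of the 8 members by array shows each value.

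**Figure D1:**
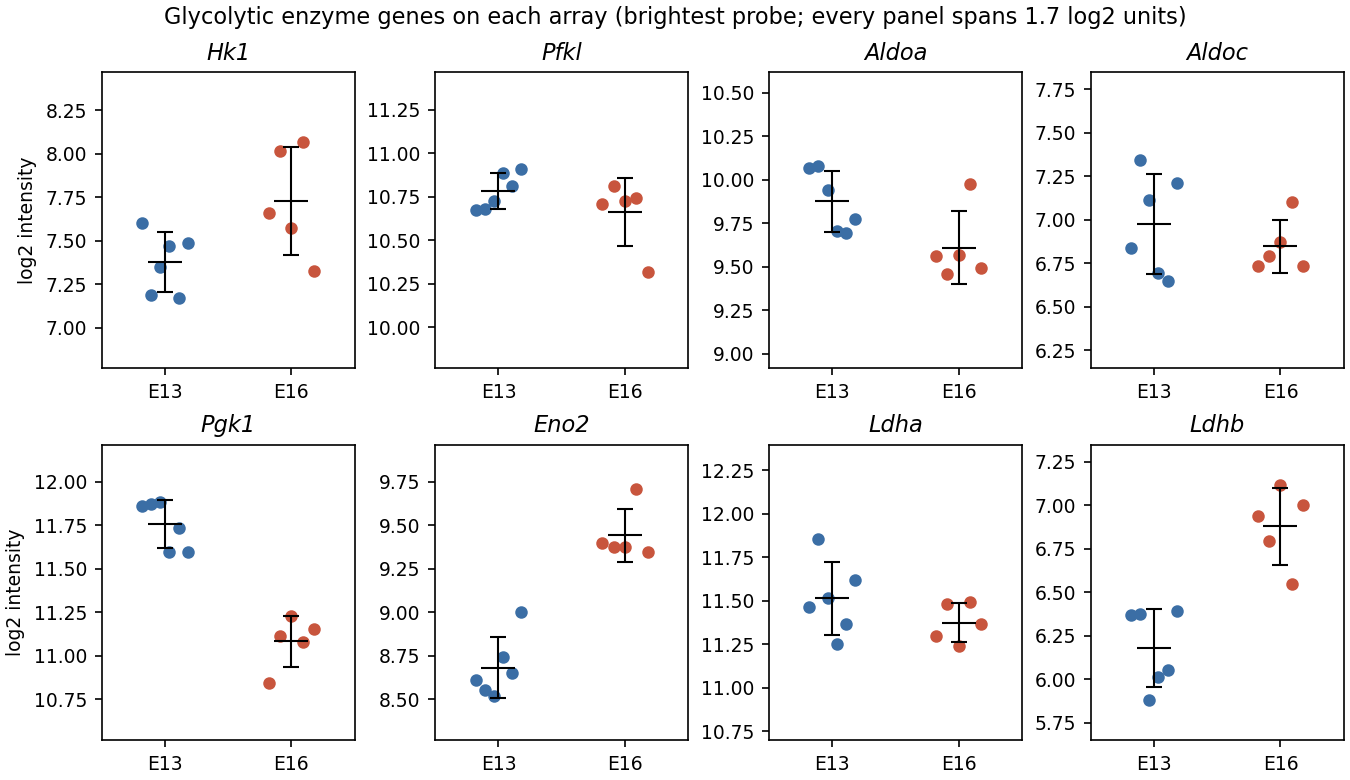
Log2 intensity of the brightest probe of each member (vertical axis) on the 6 E13 arrays (blue) and the 5 E16 arrays (red), with the mean and SD in black. Pgk1 sits lower at E16, Eno2 and Ldhb sit higher, and the stages overlap in the other 5 panels.

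Sequences upstream of a transcript start are shown for 4 of these genes because Pgk1, Eno2 and Ldhb are the members that changed and Ldha is the partner of Ldhb. Each is the 250 bases before the outermost start that RefSeq's promoter table for GRCm38.p6 holds, 5′ to 3′ on the strand of the gene. For Ldha that start lies inside the gene record, so its window falls within the gene span given below, while the other 3 windows end at the gene's 5′ end. Capitals mark ACGTG and its reverse complement CACGT, a form of the letters that hypoxia-inducible factors and the E-box factors of the Myc and Mlx families bind. Other forms, such as GCGTG, were not searched or marked. The windows lie at chrX:106186850-106187099, plus strand for Pgk1, chr6:124769674-124769923, minus strand for Eno2, chr7:46845554-46845803, plus strand for Ldha and chr6:142507958-142508207, minus strand for Ldhb.
Pgk1: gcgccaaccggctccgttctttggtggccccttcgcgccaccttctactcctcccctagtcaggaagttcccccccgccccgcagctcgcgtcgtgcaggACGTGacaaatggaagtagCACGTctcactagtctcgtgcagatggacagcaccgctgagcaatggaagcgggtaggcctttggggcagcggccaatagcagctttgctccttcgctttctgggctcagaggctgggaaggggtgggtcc
Eno2: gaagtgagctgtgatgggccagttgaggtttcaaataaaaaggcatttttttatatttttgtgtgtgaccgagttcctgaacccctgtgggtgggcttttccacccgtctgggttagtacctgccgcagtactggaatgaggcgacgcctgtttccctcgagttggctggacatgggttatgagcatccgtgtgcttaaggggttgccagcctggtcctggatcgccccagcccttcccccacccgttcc
Ldha: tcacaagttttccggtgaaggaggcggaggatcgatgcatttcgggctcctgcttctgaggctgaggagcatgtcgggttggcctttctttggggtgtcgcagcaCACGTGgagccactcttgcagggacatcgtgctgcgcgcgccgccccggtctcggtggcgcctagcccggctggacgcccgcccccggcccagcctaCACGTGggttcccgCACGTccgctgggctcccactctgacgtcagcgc
Ldhb: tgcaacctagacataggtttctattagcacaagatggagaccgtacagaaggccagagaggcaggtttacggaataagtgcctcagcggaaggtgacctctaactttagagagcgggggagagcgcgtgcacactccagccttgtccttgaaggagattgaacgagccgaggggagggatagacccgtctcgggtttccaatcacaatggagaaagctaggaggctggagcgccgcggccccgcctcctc

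The Pgk1 window held 2 matches, beginning 150 and 131 bases before the start. The Ldha window held 5 matches, 4 of which are the overlapping strands of 2 copies of CACGTG. The windows of Eno2 and Ldhb held no match to the searched letters, though the Ldhb window holds the unmarked form GCGTG. Of the 10 members, 3 had a match (Hk2, Pgk1 and Ldha), and 16.5% of windows of the same length had one over all 27025 genes listed. The windows with a match were 62.8% to 69.6% G or C and those of the other members 49.6% to 59.2%. The median over all windows was 52.0%, and the share was not adjusted for this. A match describes letters only, and whether a factor binds there was not measured.

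Hexokinase 1, the hexokinase usual in brain, commits glucose to the cell. The Hk1 gene lies at chr10:62268855-62379920 in GRCm38.p6. Its log2 intensities were 7.60, 7.19, 7.35, 7.47, 7.17 and 7.49 at E13 and 7.66, 8.01, 7.57, 8.07 and 7.33 at E16. The 3 highest values were from E16 arrays, and the stages overlapped. The difference was 0.35 (SE 0.145, 95% interval 0.04 to 0.66) and did not pass (adjusted p = 0.0885). Without E16 replicate 5, the lowest of its stage, the difference was 0.45 and passed (adjusted p = 0.0279). A second Hk1 probe, designed on another transcript record, was above background on only 2 arrays of E13 and 3 of E16. It read 7.89 on E16 replicate 5, where the brighter probe read lowest of its stage, and between 4.95 and 6.14 on the other E16 arrays, and its difference of 0.80 did not pass (adjusted p = 0.216 in the fit over all detected probes, where 22.6% of 20599 were called).

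Phosphofructokinase controls the first step that belongs to glycolysis alone, and Pfkl encodes its liver-type subunit. The Pfkl gene lies at chr10:77986947-78009807. Its log2 intensities at E13 were 10.67, 10.68, 10.72, 10.89, 10.81 and 10.91, and at E16 they were 10.71, 10.81, 10.72, 10.75 and 10.32. Replicate 5 of E16 was the lowest of all arrays, and the other arrays of both stages shared a range. The difference was -0.12 (SE 0.0922, 95% interval -0.32 to 0.08, adjusted p = 0.370). The other Pfkl probe, dimmer and detected on all 11 arrays, gave -0.28 (adjusted p = 0.210 over all detected probes). The muscle-type subunit gene Pfkm differed by 0.15 (SE 0.0745, adjusted p = 0.165) and the platelet-type gene Pfkp by -0.07 (SE 0.134, adjusted p = 0.752), the latter near background on 1 E13 and 2 E16 arrays. No subunit gene of this enzyme passed.

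Aldolase A is the widespread aldolase, and aldolase C is the brain form, which marks astrocytes and a share of neurons in the adult. The Aldoa gene lies at chr7:126795234-126800994 and the Aldoc gene at chr11:78323073-78327781. Aldoa read 10.07, 10.08, 9.94, 9.70, 9.69 and 9.77 at E13 and 9.56, 9.46, 9.57, 9.97 and 9.49 at E16. All E16 arrays but replicate 4 lay under the E13 range. The Aldoa difference was -0.27 (SE 0.111, 95% interval -0.50 to -0.03) and did not pass (adjusted p = 0.0934). Without E16 replicate 4 it was -0.36 and passed (adjusted p = 0.0164). Aldoc read 6.84, 7.35, 7.11, 6.70, 6.65 and 7.21 at E13 and 6.73, 6.79, 6.87, 7.10 and 6.73 at E16, all within the E13 range. The Aldoc difference was -0.13 (SE 0.146, 95% interval -0.44 to 0.18, adjusted p = 0.560). A second Aldoc probe was detected on no array.

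Whether the 2 aldolase isoforms changed by different amounts was tested on the log2 difference between their probes on each array, Aldoc minus Aldoa. Such a difference follows the change of a pair and does not say which mRNA is more abundant, because probes bind unequally. At E13 it was -2.90 ± 0.241 (SD, n = 6), and at E16 -2.76 ± 0.0864 (SD, n = 5). The change of 0.14 did not pass (exact two-sided permutation over all splits of the arrays, p = 0.258, also 0.258 after Benjamini-Hochberg adjustment over the 2 pairs tested). Its 95% interval, from the same exact test, ran from -0.12 to 0.39, so changes in the pair of up to that size in either direction are compatible with these arrays.

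Phosphoglycerate kinase 1 makes the first ATP that glycolysis yields. The Pgk1 gene lies at chrX:106187100-106203699. Its log2 intensities were 11.86, 11.87, 11.89, 11.60, 11.74 and 11.60 at E13. At E16 they were 10.84, 11.11, 11.23, 11.08 and 11.15. Every E16 array lay below every E13 array, and the same held for the raw intensities, which ran from 3050 to 4148 at E13 and from 1776 to 2353 at E16. Pgk1 fell by 0.68 in log2 intensity (SE 0.0850, limma adjusted p = 3.38e-05), and the E13 mean was 1.6 times the E16 mean. Basal progenitor markers (10 of 11 lower) and Cajal-Retzius markers (6 of 6 lower) were also lower on the E16 arrays, where 14.1% of all genes fell. The part of these markers in the Pgk1 difference was not tested.

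The fall of Pgk1 was seen with its brightest probe of 3. The next probe, above background on every E13 array and on 4 E16 arrays, read 5.74, 5.95, 5.25, 5.75, 6.16 and 5.6 at E13 and 5.09, 5.40, 5.69, 5.81 and 6.07 at E16. Its stages overlapped, and its difference was -0.13 (SE 0.188, adjusted p = 0.677 over all detected probes). The third probe was detected on no array. With the mean over the detected probes Pgk1 was -0.40 (adjusted p = 0.0209). These probes were designed on 1 transcript record, and the dimmer ones lay near the lowest detected signal of the arrays, 5.09 to 5.19. The plot of members with several probes sets them side by side.

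**Figure D2:**
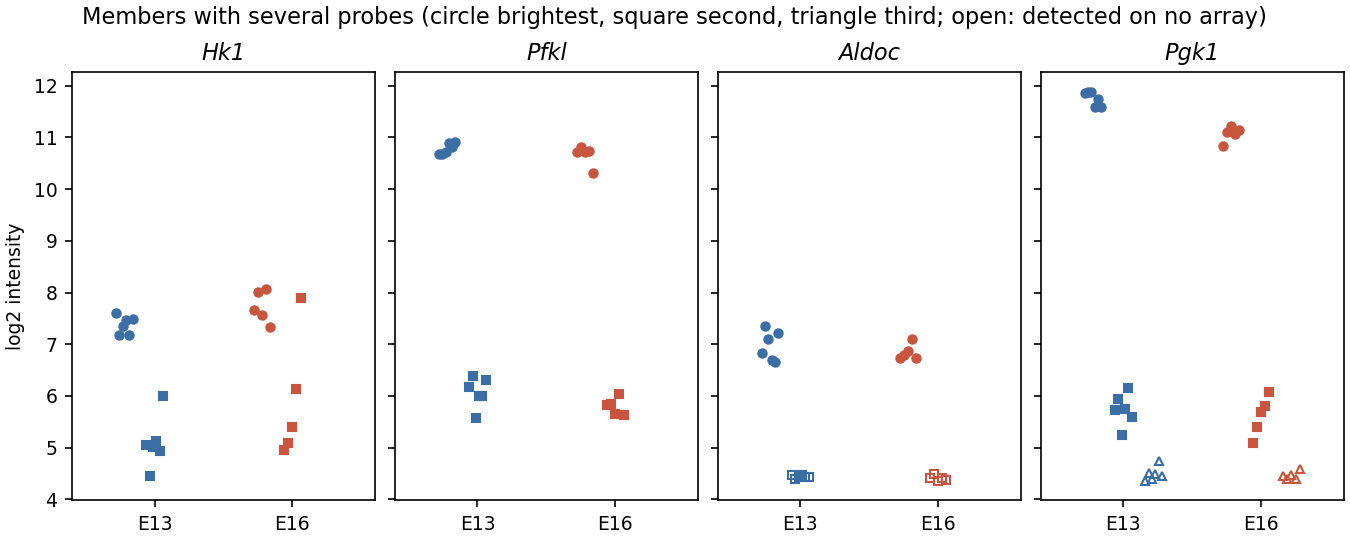
Log2 intensity (vertical axis) of every probe of the 4 members with more than 1 probe, at E13 (blue) and E16 (red), 1 point an array. Only the brightest Pgk1 probe separates the stages, and the second Hk1 probe reads 7.89 on E16 replicate 5 against 4.95 to 6.14 on the other E16 arrays.

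Enolase 2, or neuron-specific enolase, forms phosphoenolpyruvate and is the isoform to which maturing neurons switch. The Eno2 gene lies at chr6:124760053-124769673. Its log2 intensities at E13 were 8.61, 8.56, 8.52, 8.74, 8.65 and 9.0. At E16 they were 9.40, 9.38, 9.38, 9.71 and 9.35. Replicate 6 was the highest at E13 and replicate 4 the highest at E16, and the stages did not overlap. Eno2 rose by 0.76 (SE 0.106, 95% interval 0.53 to 0.99, adjusted p = 8.49e-05), a 1.7-fold increase. Raw intensities overlapped, from 332 to 585 at E13 and from 544 to 851 at E16. Eno2 has 1 probe here. In the neuron marker list 1 of 14 tested genes, Mapt, rose and 6 fell, where 13% of all genes rose and 14.1% fell. The list had a median difference of -0.24, and its part in the rise of Eno2 was not tested.

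The probes of other enolase genes did not pass. Eno3, the muscle form, differed by 0.14 (SE 0.130, adjusted p = 0.452) and Eno4 by 0.56 (SE 0.213, adjusted p = 0.0652). The probe that the platform names Eno1b, a gene for which RefSeq lists Eno1 among the synonyms, differed by -0.49 (SE 0.229, adjusted p = 0.130). Whether that probe also reads the Eno1 transcript was not tested, so it was not used as the partner of Eno2, and it was chosen after its values were seen.

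Lactate dehydrogenase is a tetramer of the subunits encoded by Ldha and Ldhb. The Ldha gene lies at chr7:46842274-46855627 and the Ldhb gene at chr6:142490249-142507957. Ldha read 11.46, 11.86, 11.52, 11.25, 11.37 and 11.62 at E13 and 11.29, 11.48, 11.24, 11.49 and 11.36 at E16. Except for replicate 3, which was marginally the lowest of all arrays, the E16 values lay within the E13 range. The Ldha difference was -0.14 (SE 0.0978, 95% interval -0.35 to 0.07, adjusted p = 0.321).

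Ldhb read 6.37, 6.37, 5.88, 6.01, 6.05 and 6.39 at E13. At E16 it read 6.94, 6.80, 7.12, 6.54 and 7.0. All E16 arrays were above all E13 arrays, with E16 replicate 4 nearest to them. Ldhb rose by 0.70 (SE 0.141, 95% interval 0.40 to 1.0, adjusted p = 0.00174), a 1.62-fold increase on the log2 scale with its offset, which understates the change of a dim probe. The raw intensities overlapped, from 44.4 to 80.7 at E13 and from 74.7 to 122 at E16, so the separation appeared after normalization. The gene has 1 probe here, and its record is a cDNA clone that the platform assigns to Ldhb.

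The pair changed unequally. Ldhb minus Ldha was -5.09, -5.48, -5.63, -5.24, -5.32 and -5.23 at E13 and -4.36, -4.68, -4.12, -4.95 and -4.37 at E16. The highest E13 value lay below the lowest E16 value. The mean moved from -5.33 ± 0.195 (SD, n = 6) to -4.49 ± 0.321 (SD, n = 5), and the change of 0.84 (95% interval 0.47 to 1.19) had an exact permutation p of 0.00216, the smallest that splits of 6 against 5 arrays allow, and 0.00433 after adjustment over the 2 pairs. The ratio of Ldhb to Ldha signal was thus 1.79 times as high at E16 under the main processing, and its size depended on the processing. The plot of the isoform pairs gives the values by array.

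**Figure D3:**
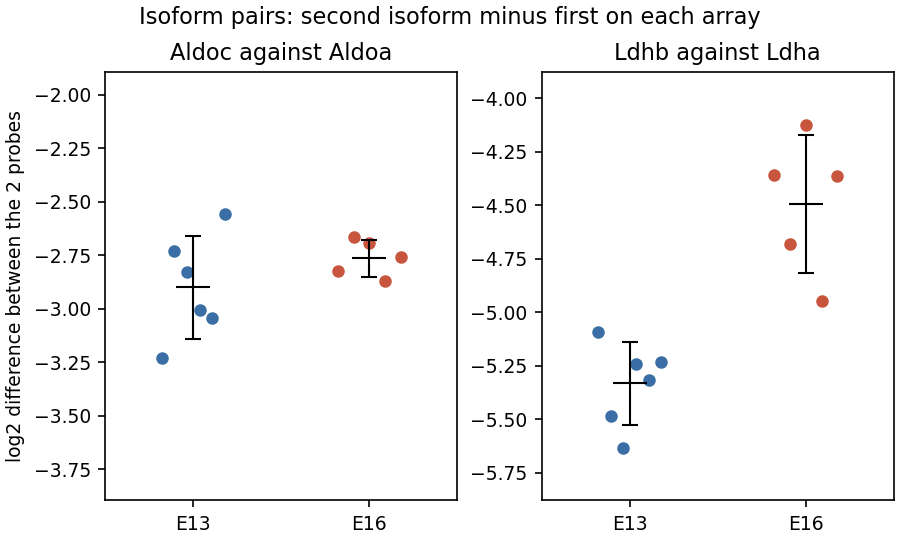
Log2 difference between the probes of 2 isoforms on each array (vertical axis), at E13 (blue) and E16 (red), with the mean and SD in black. Ldhb against Ldha moves from a mean of -5.33 to -4.49 without overlap, and Aldoc against Aldoa overlaps, at -2.90 and -2.76.

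Among the other enzymes of the pathway, 2 of 10 tested genes fell and none rose by limma (at an unadjusted p under 0.05, 5 were lower and 1 higher), with a median difference of -0.14. Over all genes 14.1% fell and 13% rose, so with 10 genes the counts of calls lie near those shares. At an unadjusted p under 0.05 the lower share was 50%, against 20.0% of all genes, and the higher share 10%, against 18.4%. Whether these shares differ was not tested. Pgam1, phosphoglycerate mutase, which acts directly after Pgk1, fell by 0.48 (SE 0.134, adjusted p = 0.0145), from 9.26 ± 0.270 (SD, n = 6) to 8.77 ± 0.194 (SD, n = 5). It did not pass without both E16 replicates 1 and 2 (-0.44, adjusted p = 0.0731). Pkm, pyruvate kinase, the last step before pyruvate, fell by 0.58 (SE 0.188, adjusted p = 0.0313). Its E16 arrays spread from 12.04 to 13.27, and its call was lost when any of 4 E13 arrays (replicates 1, 2, 3 and 6) or either of E16 replicates 3 and 5 was left out, with adjusted p of up to 0.0896, and with the replicate number as a block (-0.57, adjusted p = 0.0560). With the mean over its detected probes it was -0.25 (adjusted p = 0.454). Gapdh, glyceraldehyde 3-phosphate dehydrogenase, differed by -0.22 (SE 0.101, adjusted p = 0.129). Of the 20 genes on this list, 5 with a probe were detected on no array, among them the hexokinase gene Hk3 and the testis isoform gene Pgk2.

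**Figure D4:**
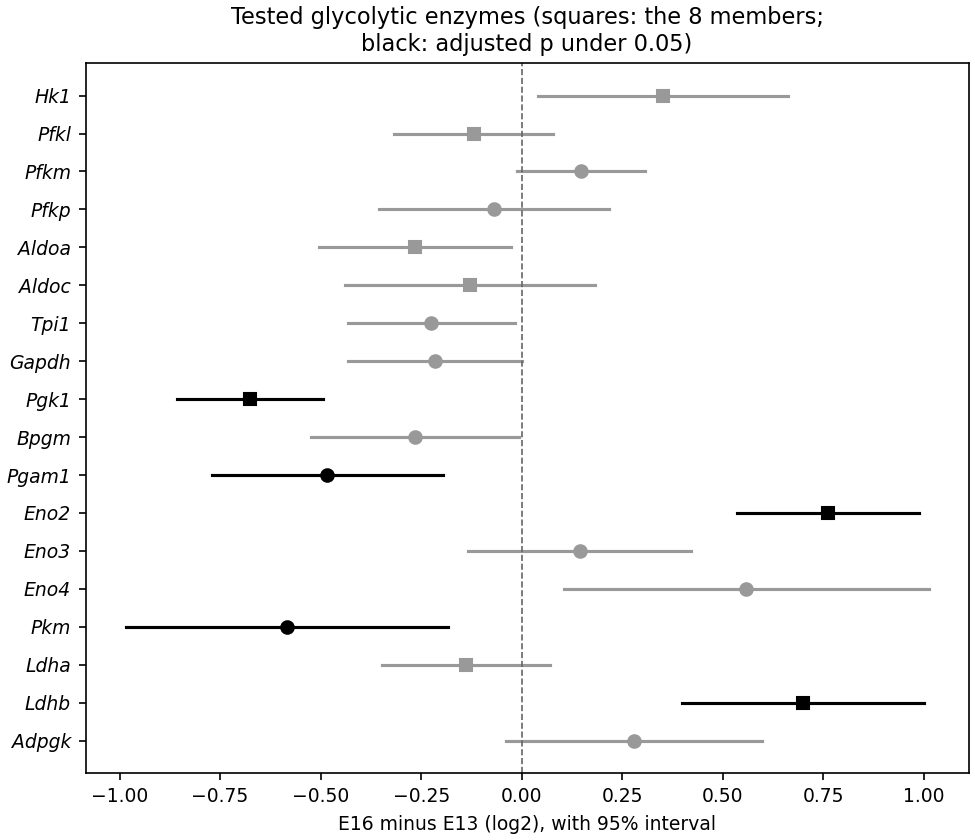
Difference between the stages, E16 minus E13 on the log2 scale (horizontal axis), with its 95% interval for the tested glycolytic enzymes in the order of the pathway, with Adpgk last. Eno2 and Ldhb lie to the right of 0 and Pgk1, Pgam1 and Pkm to the left among the genes that passed (black).

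Transporters bring sugar into the cell and let lactate out. Of 9 tested transporter genes 1 rose and 1 fell, with a median of -0.04, where 13% of all genes rose and 14.1% fell. The neuronal glucose transporter gene Slc2a3 rose by 0.51 (SE 0.106, adjusted p = 0.00209), and its E16 arrays agreed within an SD of 0.0196. Slc2a13, a proton myo-inositol cotransporter, fell by 0.81 (SE 0.119, adjusted p = 1.33e-04). Slc2a1, the glucose transporter of most dividing cells, differed by -0.04 (SE 0.113, 95% interval -0.28 to 0.20, adjusted p = 0.829). The lactate transporter gene Slc16a1 was detected on no array.

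Of 21 tested regulators of glycolytic flux 2 rose and 3 fell, with a median of 0.01, where 13% of all genes rose and 14.1% fell. Hif1a, the oxygen-regulated subunit of the hypoxia-inducible factor, fell by 0.44 (SE 0.111, adjusted p = 0.00797), and Hif3a, a related subunit, fell by 0.88 (adjusted p = 3.97e-04), or -0.50 with the mean over its detected probes. Egln3, a prolyl hydroxylase that marks these subunits for degradation, rose by 0.79 (adjusted p = 0.00801). It was above background on every E16 array but on only 1 E13 array. It passed the detection filter through its E16 arrays, so its p-value sets signal against values near background. Pfkfb2, which makes the activator of phosphofructokinase, rose by 0.61 (adjusted p = 4.78e-04), or 0.35 with the mean over its detected probes, and Pdk3, a kinase that inhibits pyruvate dehydrogenase, fell by 0.71 (adjusted p = 2.59e-04). Myc differed by -0.22 (SE 0.110, adjusted p = 0.153), and Mycn was detected on no array.

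Other genes known to respond to hypoxia were tested because several members, Pgk1 and Ldha among them, belong to the same response. Of 16 tested genes 4 rose and 1 fell, with a median of 0.04, where 13% of all genes rose and 14.1% fell. Whether these shares differ was not tested. Ndrg1 rose by 1.14 (SE 0.259, adjusted p = 0.00421), the angiogenic factor gene Vegfa by 0.75 (adjusted p = 0.00127; 0.50 without both E16 replicates 1 and 2) and the mitochondrial adenylate kinase gene Ak4 by 0.74 (adjusted p = 0.00190). Pdgfb, a growth factor gene, fell by 0.67 (adjusted p = 0.00128), and 1 of the 5 E16 arrays had it above background. It passed the detection filter through its E13 arrays. Pgk1, which was lower, and Ldha, which did not pass, are given above. The list holds Tpi1, which is also on the list of other glycolytic enzymes.

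Pyruvate that enters mitochondria is oxidised by pyruvate dehydrogenase and the tricarboxylic acid cycle, which feed the respiratory chain. In the list of pyruvate dehydrogenase and the tricarboxylic acid cycle 6 of 25 tested genes fell and none rose by limma (10 lower and 0 higher at an unadjusted p under 0.05), where 14.1% of all genes fell and 20.0% were lower unadjusted, with a median of -0.14. Suclg2, a subunit of succinyl-CoA ligase, fell by 1.57 (SE 0.121, adjusted p = 4.09e-07), the malic enzyme gene Me1 fell by 0.87 and its relative Me2 fell by 0.54, and Pdhb, a subunit of pyruvate dehydrogenase, fell by 0.42 (adjusted p = 0.00318). Me1 was above background on 3 of the E16 arrays, and Me2 did not pass without both E16 replicates 1 and 2 (-0.39, adjusted p = 0.0535). With the mean over its detected probes Pdhb was -0.20 (adjusted p = 0.137). In the respiratory chain 7 of 70 tested genes fell and none rose by limma, with a median of -0.12. The share that fell was below the 14.1% of all genes, of which 13% rose. At an unadjusted p under 0.05, 22 were lower (31.4%, against 20.0% of all genes) and 0 higher (against 18.4% of all genes). Whether these shares differ from those of all genes was not tested. Cox6b2, a cytochrome oxidase subunit typical of testis, was detected on no E16 array and was at least 1.40-fold lower there (adjusted p = 2.20e-04). It passed the detection filter through its E13 arrays. Ndufv3 of complex I fell by 0.49, Cycs, cytochrome c, by 0.40 and Atp5h of the ATP synthase by 0.29. Cycs did not pass with the mean over its detected probes (-0.27, adjusted p = 0.0782), and Atp5h did not pass with the replicate number as a block (adjusted p = 0.0559) or without both E16 replicates 1 and 2 (adjusted p = 0.0519). Basal progenitor markers were lower on the same arrays, and their part in these differences was not tested.

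Branches that leave glycolysis went both ways. In the pentose phosphate pathway 2 of 8 tested genes rose and none fell by limma (the same counts at an unadjusted p under 0.05), with a median of 0.09. Over all genes 13% rose and 14.1% fell by limma, and 18.4% were higher and 20.0% lower at an unadjusted p under 0.05. Tkt, transketolase, rose by 0.59 (SE 0.103, adjusted p = 5.83e-04), and Prps2, which makes phosphoribosyl pyrophosphate for nucleotides, by 0.47 (adjusted p = 0.00825). In the list of glycogen and side branches 3 of 14 tested genes rose and 3 fell by limma, beside the same shares of all genes, with a median of -0.09. Gpd2, the mitochondrial enzyme of the glycerol phosphate shuttle, rose by 0.85 (SE 0.0945, adjusted p = 1.05e-05), Gfpt2, which feeds hexosamine synthesis, by 0.77 (adjusted p = 0.00117) and Pygl, a glycogen phosphorylase, by 0.77 (adjusted p = 0.00351). Phgdh, which starts serine synthesis from the product of Pgk1, fell by 0.71 (adjusted p = 0.00157). Of 8 gluconeogenesis genes 2 were tested and none passed by limma, adjusted or not, with Pcx at -0.07 (adjusted p = 0.741) and G6pc3 at -0.05 (adjusted p = 0.843).

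**Figure D5:**
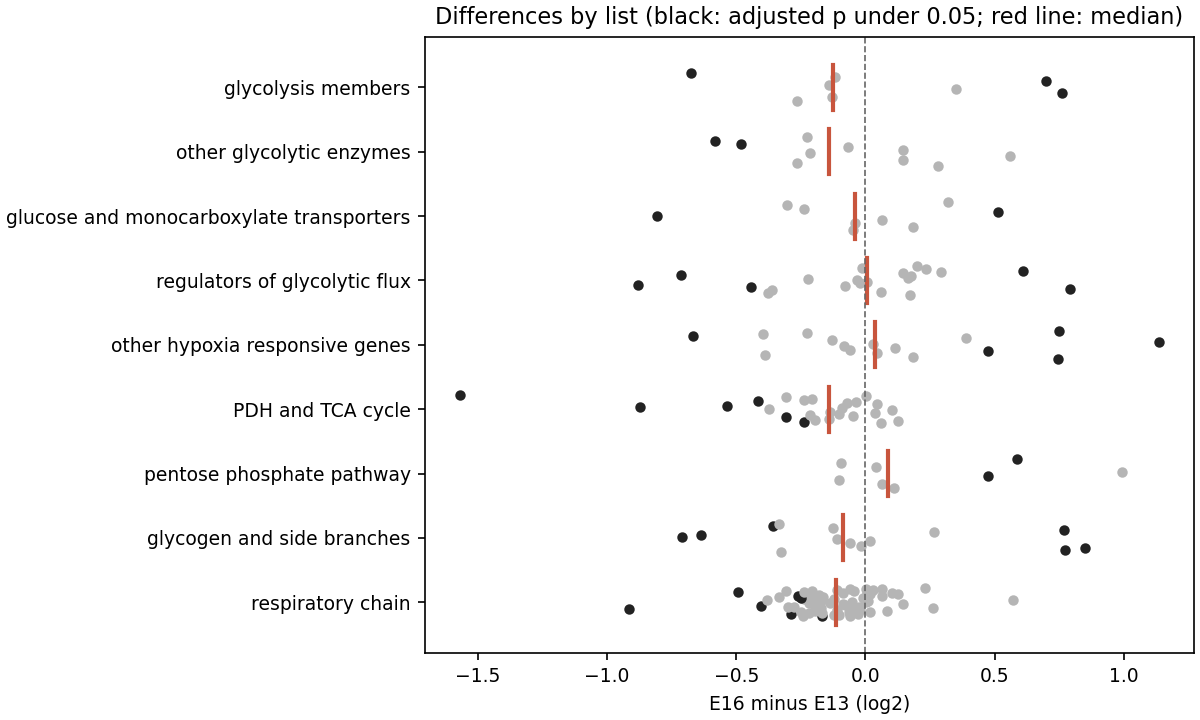
Difference between the stages, E16 minus E13 on the log2 scale (horizontal axis), for each tested gene of 9 lists, with genes past the threshold in black, others in grey and the list median as a red line. The medians lie between -0.14 and 0.09.

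The genes whose pattern over the 11 arrays was nearest to that of Eno2 were Anks6, Sema6b and Nfic. Likeness was the root mean square difference of log2 values after centring each gene on its own mean, and it was 0.120, 0.123 and 0.126 for these, against a root mean square of 0.407 for Eno2 itself. Nearest to Pgk1 were Psat1 (0.0726), a serine synthesis enzyme gene, Mcm5 (0.0890), a subunit of the replicative helicase, and Nfatc2 (0.0912), against 0.360 for Pgk1 itself. Psat1 fell by 0.64 (adjusted p = 2.14e-04), and it belongs to the side branch list above.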

How the data were processed

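Biotin-labelled cRNA from total RNA of sorted basal progenitors was hybridised to Illumina bead arrays, per the labels' protocols. The authors deposited raw probe intensities that were not normalized between arrays, per the file headers and values, with between 26.9% and 29.2% of an array's intensities below 0, so a background had been subtracted. A detection p-value stands beside each deposited intensity. The authors also deposited a table of log2 values for 16554 probes, whose columns hold the same sorted values within 0.00221, and it was used as an alternative. Its scale and centring were read from the values. Scanner software is not given in the sources used here.

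Background was corrected by normexp from the detection p-values, and an offset of 16 was added. Arrays were then quantile normalized, and log2 was taken last (the steps of neqc, limma 3.58.1, R 4.3.3). Probes with a detection p-value under 0.05 on at least 5 arrays were kept, 20599 in all. Egln3, Pdgfb, Cox6b2 and Me1 would not have met this filter at their lower stage alone. Their p-values set signal at the higher stage against values at or near background at the lower. The platform table gives 34885 probes 1 symbol, 18 several and 10378 none, and identifiers of 34807 matched GRCm38.p6 gene records, changing 0 symbols. The probe with the highest mean stood for each gene. The stages were compared with lmFit and eBayes with a trend, two-sided, with Benjamini-Hochberg adjustment over all 10568 genes. Isoform pairs were compared by exact permutation. The fit was tested on simulated data. The number of arrays limits precision: standard errors of the members lay between 0.0850 and 0.146. All 10 members were named whatever their result. Of each other pathway list the text names up to 4 genes past the threshold with the largest differences, or up to 2 where none passed, and a set of partner and regulator genes was named whatever the result, except some not reported here. Eno4, Eomes, Hba-a1 and Mapt were named after their values were seen. The 3 genes nearest to the member with the largest rise and to that with the largest fall were named as well. The members and lists were chosen with earlier results of these data known. The 22 alternatives covered normalization, background, offset, filter, weights, probe choice, the value table and left-out arrays. The mean over detected probes was added after seeing the data. The Hk1 with Hk2 and Eno1 with Eno2 ratios planned at first were not run.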

Additional observations from a re-analysis of the deposited data

Results flagged for a closer look

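In 90 groups of values, those of the named genes and the 2 pair ratios at each stage, 9 held a sample whose gap to its nearest neighbour was large for the range of the group, where chance gives about 5%. Among the members, Eno2 read 9.71 on E16 replicate 4 against 9.35 to 9.40 on the other E16 arrays, and Aldoa read 9.97 on the same array against 9.46 to 9.57. Pfkl read 10.32 on E16 replicate 5 against 10.71 to 10.81. Among other genes, Slc2a13 read 8.30 on E16 replicate 4, above 7.65 to 7.84 on the others, and Eno3 read 7.25 on E16 replicate 2, below 7.53 to 7.61. At E13, Hif3a read 8.17 on replicate 6 (others 7.57 to 7.78), Egln3 5.74 on replicate 1 (others 4.50 to 4.94), Me2 7.16 on replicate 5 (others 6.86 to 6.94) and Pfkm 11.40 on replicate 3 (others 11.63 to 11.76). E16 replicate 4 accounts for 3 of these values and the causes were not tested.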

How the results depend on the processing

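Eno2 and Ldhb passed in all 22 alternatives, with Eno2 between 0.69 and 0.82 and Ldhb between 0.51 and 0.85, and Pgk1 passed in 21 of 22, between -0.72 and -0.13. Eno2 and Ldhb have 1 probe each. For them the second brightest probe and the mean over detected probes repeat the main difference and test no other probe. With the second brightest probe Pgk1 was -0.13 (adjusted p = 0.672), so 0 members were then lower, and 2 were lower without E16 replicate 4. Over fits that left out 1 array, between 2 and 3 members were higher and between 1 and 2 lower, and between 1155 and 1343 genes were higher and between 1278 and 1511 lower. Centring each array on its median gave 966 genes higher and 1616 lower in place of 1373 and 1495, so the higher share of calls was 37.4% in place of 47.9%, and it moved the median of all genes from -0.01 to -0.05 with the same 3 members called. Pair changes over fits that left out 1 array lay between 0.74 and 0.95 for Ldhb against Ldha (all 11 with p under 0.05 by exact permutation) and between 0.07 and 0.20 for Aldoc against Aldoa (none). Over all 21 alternatives run on the pairs, the change of Ldhb against Ldha lay between 0.65 and 0.99. With the replicate number as a block the Ldhb change was 0.86 with an exact permutation p of 0.0625, the smallest that sign changes of 5 pairs allow, so that design cannot pass. The block called the same 3 members, with 1161 genes higher and 1279 lower. Same-numbered samples had correlations of their deviations between -0.10 and 0.14. These values showed no pairing by number, though low correlations cannot exclude one. Differences near 0 that did not pass changed sign in some fits: Pcx (lowest -0.17) was 0.0085 and Pfkp (lowest -0.17) 0.0036 without E16 replicate 3, G6pc3 (lowest -0.19) was 0.012 and 0.037 without E16 replicate 1 or 2 and 0.15 without both, and Slc2a1 (lowest -0.11) was 0.016 with the replicate block or without E13 replicate 6 and 0.040 without E16 replicate 3. The cause was not tested. Of the alternatives for single genes, 870 left direction and call as they were, 15 lost a call, 2 gained one and 8 changed sign. Dim probes such as those of Ldhb, Aldoc and Hk1 lie nearer to background, where the offset compresses differences: with an offset of 50 Egln3 was 0.42, Ak4 0.49, Pdgfb -0.35, Me1 -0.50, Prps2 0.27, Pygl 0.49 and the measured difference of Cox6b2 -0.48, all still past the threshold. Prps2 was 0.74 in the deposited log2 table.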
